A study of Mus musculus with 6 samples.

Results

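The genes described here encode the proteasome, its regulatory particles and its assembly factors. They were taken as all genes whose platform symbol starts with Psma, Psmb, Psmc, Psmd, Psme, Psmf or Psmg, and 50 of the 19938 measured genes met that rule. Of these, 48 are proteasome genes by known function, 5 of them the inducible subunits Psmb8, Psmb9 and Psmb10 and the activator genes Psme1 and Psme2. The other 2 were taken in by their prefix, namely Psmc3ip, a meiotic recombination factor, and Psme3ip1, a partner protein of the activator encoded by Psme3. RNA was measured on 6 Affymetrix arrays, 3 from Roquin+/+ (wild-type) and 3 from Roquinsan/san (sanroque) mice, both on a C57BL/6 background and 10 weeks old. Each sample was of CD8+ T cells with low CD44, sorted from spleen and lymph nodes, and the labels number the samples as biological replicates. Sanroque mice are homozygous for a point mutation in the RNA-binding protein Roquin that is carried in all their cells, so a difference in T cells need not begin in the T cells.

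The proteasome is the barrel-shaped protease that degrades ubiquitin-tagged proteins. Its core particle stacks rings of alpha subunits, which gate the entry, around rings of beta subunits, which hold the catalytic sites, and the regulatory particle on top recognises, unfolds and feeds in the substrate. Interferon gamma induces alternative catalytic subunits in many cell types: the products of Psmb8, Psmb9 and Psmb10 take the place of those of Psmb5, Psmb6 and Psmb7, and the resulting immunoproteasome cuts peptides suited to MHC class I. Lymphocytes express these inducible subunits constitutively, and T cells need proteasome capacity when they are activated and divide.

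Promoter sequence gives the context for these groups, since Psmb9 lies head to head with the peptide transporter gene Tap1 and the promoter carries both. The 250 bases before the annotated start were read from RefSeq (GRCm38.p6), which held a promoter for 42 of the 50 genes. Shown 5′ to 3′ on the strand of the gene are the inducible Psmb9, the constitutive catalytic subunit gene Psmb5, and Psmd12 and Psmd6, the only members that passed the test below. Capitals mark matches to any of the 3 motifs searched.
Psmb9 (chr17:34187331-34187580, minus strand): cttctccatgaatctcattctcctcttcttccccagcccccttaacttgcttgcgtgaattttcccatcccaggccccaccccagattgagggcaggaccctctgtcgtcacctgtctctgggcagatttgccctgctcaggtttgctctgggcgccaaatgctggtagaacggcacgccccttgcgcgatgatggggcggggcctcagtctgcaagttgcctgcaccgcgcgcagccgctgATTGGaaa
Psmb5 (chr14:54617996-54618245, minus strand): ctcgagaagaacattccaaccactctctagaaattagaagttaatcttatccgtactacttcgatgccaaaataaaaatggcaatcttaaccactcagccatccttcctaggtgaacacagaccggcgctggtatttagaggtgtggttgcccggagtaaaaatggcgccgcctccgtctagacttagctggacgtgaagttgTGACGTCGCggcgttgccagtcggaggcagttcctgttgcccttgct
Psmd12 (chr11:107479278-107479527, plus strand): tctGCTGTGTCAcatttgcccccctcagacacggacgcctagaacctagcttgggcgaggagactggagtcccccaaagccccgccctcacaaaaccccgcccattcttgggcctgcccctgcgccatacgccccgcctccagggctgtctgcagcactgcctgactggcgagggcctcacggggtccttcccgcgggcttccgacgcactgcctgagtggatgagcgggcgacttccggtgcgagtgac
Psmd6 (chr14:14120946-14121195, minus strand): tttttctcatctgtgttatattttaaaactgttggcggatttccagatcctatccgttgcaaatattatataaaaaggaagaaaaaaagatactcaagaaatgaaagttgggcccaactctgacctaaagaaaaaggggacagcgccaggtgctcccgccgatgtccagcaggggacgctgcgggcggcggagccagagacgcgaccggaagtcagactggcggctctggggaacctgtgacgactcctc

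The motifs were the CCAAT box (CCAAT), a core of the IRF element (GAAANNGAA) and the antioxidant response element bound by NRF factors (TGACNNNGC), each on both strands, and overlapping matches were allowed. In the stretches printed, the match in Psmb9 is a CCAAT box, those in Psmb5 and Psmd12 antioxidant response elements, and Psmd6 has no match. A CCAAT box stood in 16 of 42 member genes (38.1%), against 37.5% of all 27025 genes with a promoter in the table. The antioxidant response element stood in 5 of 42 (11.9%), namely Psmb5, Psmb6, Psmc6, Psmd9 and Psmd12, against 11.5% of all genes. The IRF core was found in Psmb3, Psmd4 and Psmd9 (7.1%, against 8.2% of all genes). The 250 bases before Psmb9 and those before Tap1, which is transcribed from the opposite strand, share 225 bases. These counts describe letters in a short window and say nothing of which factor binds.

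Levels are given as log2 of the deposited linear intensity, and folds as the sanroque mean minus the wild-type mean on that scale, with limma's moderated standard error. Calls needed an adjusted p under 0.05 (limma, Benjamini-Hochberg, all 19938 genes), which 5.77% of genes reached. Array medians lay between 53.6 and 56.9 in linear intensity, while the median of the brighter genes, relative to the wild-type mean, ran from -0.07 (sanroque replicate 1) to 0.03 (wild type replicate 2). The T cell genes Cd8a, Cd8b1 and Cd3e differed by 0.08 or less between the genotypes, Cd3g had a fold of -0.14 with groups that did not overlap, and Cd3d fell by 0.52, while transcripts of cells that the sort should remove differed by genotype. Of 8 B cell markers 6 were called higher and 0 lower, with summed linear intensities of 1840 to 4410 in wild type and 6830 to 8310 in sanroque, and Cd74 and H2-Ab1 were the brightest. Of 9 myeloid markers 8 were called higher and 0 lower (sums of 556 to 1100 and 5570 to 8740), led in brightness by Lyz2 and Ngp, and Cd14 stayed near the low end of the scale (4.46 and 4.57). Plasma cell markers were called higher in 4 of 5 cases (496 to 799 and 1610 to 2200), NK cell markers in 2 of 4 (110 to 120 and 170 to 216) and CD4 T cell markers in 1 of 4 (195 to 249 and 316 to 431). The effector genes Gzma, Gzmb, Ccl5, Klrg1 and Cd44 were all called higher, with folds of 4.67, 4.30, 4.55, 4.33 and 1.40. The samples had been sorted for low CD44, and why Cd44 RNA was higher in sanroque was not tested. Of the naive T cell genes Ccr7, Lef1 and Il7r, all 3 had folds below 0 and Il7r was called, at -0.69. In these bulk samples a change in the share of cells of a type and a change in RNA per cell cannot be told apart. The part of these other cells in the proteasome values was not tested directly.

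Most proteasome genes had slightly lower means in sanroque cells, few of which passed the test. The folds of the 5 inducible and PA28 genes ran from -0.04 to 0.19, and 0 of the 5 passed. Of the 43 proteasome genes other than the 5 inducible and PA28 ones, 35 had a log2 fold below 0, with a median of -0.18, a lowest value of -0.69 and a highest of 0.37. Over all genes 61.5% were below 0 and the median was -0.03, and over the 9969 genes brighter than the median gene 58.9% were below 0 with a median of -0.05. The 3 sanroque values lay wholly below the 3 wild-type values in 17 of the 43, or 39.5%, against 13.2% of all genes and 20.4% of the brighter genes. They lay wholly above them in 1 of the 43, Psmd2, against 9.46% of all genes and 13.5% of the brighter genes. Single genes seldom passed: of all 50 members 2 were called lower and 0 higher (limma, Benjamini-Hochberg), where 2.51% of all genes (4.91% of the brighter ones) were called lower and 3.26% of all genes higher. Without adjustment 19 of the 50 had a p below 0.05 with a lower level and 0 with a higher one, against 10.7% and 8.16% of all genes. Among the brighter genes these shares were 19.7% and 12.3%. The count of 2 is near the background, and the other differences were small and mostly in 1 direction. The side of 0 on which the 5 inducible and PA28 genes lay was not stable: 4 of the 5 were below 0 without wild type replicate 3 (median -0.03) and with array weights (median -0.07). Leaving out each array in turn, 37 of the 50 members kept the sign of their fold, 31 of them below 0 and 6 above.

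**Figure D1:**
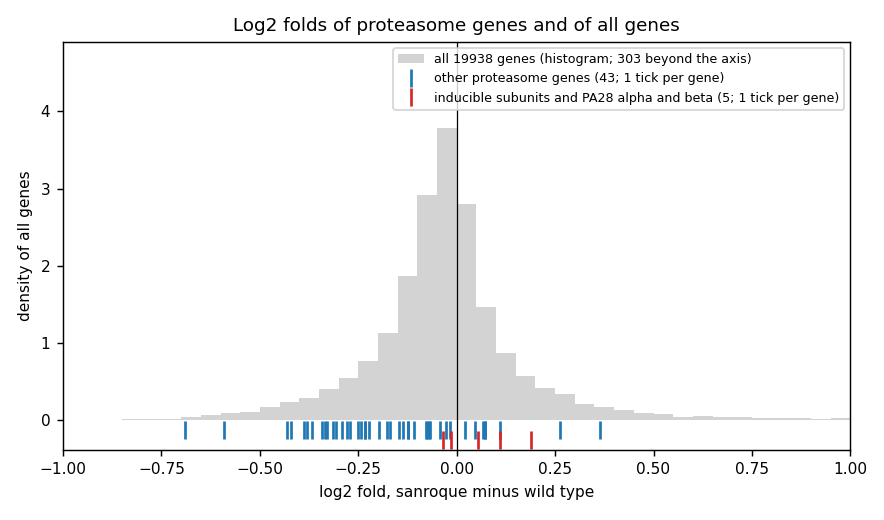
Log2 folds (sanroque minus wild type) of the 43 other proteasome genes and of the 5 inducible and PA28 genes, 1 tick per gene, below a histogram of all 19938 genes. Most ticks of the 43 lie left of 0, with a median of -0.18, and those of the 5 lie between -0.04 and 0.19.

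Both called genes encode scaffold subunits of the lid, the part of the regulatory particle that removes ubiquitin. Psmd6 read 10.00, 9.99 and 9.74 in the wild-type arrays against 9.27, 9.22 and 9.47 in the sanroque arrays, here and below in the order of their replicate numbers. Each sanroque array was below each wild-type array, and the mean fell by 0.59 ± 0.10, to 0.664 of the wild-type level (limma, Benjamini-Hochberg adjusted p = 0.0238). Psmd12 read 9.77, 9.81 and 9.57 in the wild-type arrays against 9.25, 9.23 and 9.43 in the sanroque arrays. Its groups did not overlap either, and it fell by 0.42 ± 0.09, to 0.748 of the wild-type level (limma, Benjamini-Hochberg adjusted p = 0.0477). Both calls rest on few arrays. No member passed when wild type replicate 1, wild type replicate 2, sanroque replicate 1 or sanroque replicate 2 was left out, whereas 6 passed without wild type replicate 3 (also Psma5, Psmd10, Psmd14 and Psmg2) and 4 without sanroque replicate 3 (also Psmc4 and Psmg2). The fold itself moved little, from -0.67 to -0.54 for Psmd6 and from -0.49 to -0.37 for Psmd12.

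Psmg2, whose product chaperones the assembly of the alpha ring together with that of Psmg1, had the most negative fold of the members. It read 8.95, 8.87 and 8.52 in the wild-type arrays against 8.15, 7.81 and 8.30 in the sanroque arrays, which is -0.69 ± 0.16 on the log2 scale and missed the threshold (Benjamini-Hochberg adjusted p = 0.0515, limma). Its sanroque arrays were all below its wild-type arrays, and sanroque replicate 2 was the lowest. Psmg1 had a log2 fold of -0.39 with groups that did not overlap and did not pass. Psmg3 and Psmg4, whose products act on the same ring, had folds of -0.08 each with intervals on both sides of 0, and their probe sets were dimmer, with levels between 6.04 and 6.66.

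The 3 inducible catalytic subunit genes had small positive folds that did not pass. Psmb9 (beta1i) read 11.05, 10.93 and 11.06 in the wild-type arrays against 10.97, 11.22 and 11.40 in the sanroque arrays. The groups overlapped, and the log2 fold of 0.19 ± 0.11 did not pass (95% interval -0.08 to 0.45; limma, Benjamini-Hochberg adjusted p = 0.485). It was 0.09 without sanroque replicate 3 and 0.30 without sanroque replicate 1. Psmb8 (beta5i) read 10.55, 10.51 and 10.22 in the wild-type arrays against 10.38, 10.55 and 10.52 in the sanroque arrays, a log2 fold of 0.05 with an interval of -0.19 to 0.30. Psmb10 (beta2i) read 10.20, 10.00 and 9.74 in the wild-type arrays against 9.94, 10.15 and 10.19 in the sanroque arrays, a log2 fold of 0.11 with an interval of -0.19 to 0.41. Wild type replicate 3 was the lowest array for both, and without it the folds were -0.05 for Psmb8 and -0.01 for Psmb10. Rises of more than about 0.45 on the log2 scale lie outside all 3 intervals.

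Psme1 and Psme2 encode the alpha and beta subunits of PA28, an interferon-induced cap that opens the core particle. Psme1 read 11.97, 11.94 and 11.98 in the wild-type arrays against 11.83, 11.88 and 12.06 in the sanroque arrays, with a log2 fold of -0.04 (95% interval -0.22 to 0.15). Psme2 read 10.73, 10.59 and 10.61 in the wild-type arrays against 10.62, 10.62 and 10.65 in the sanroque arrays, with a log2 fold of -0.01 (interval -0.17 to 0.15). In both genes the arrays of the genotypes overlapped. The difference of Psme1 was smaller than the SD of its sanroque arrays (0.12) but not that of its wild-type arrays (0.02). The difference of Psme2 was smaller than the SD of its wild-type arrays (0.08) and about that of its sanroque arrays (0.01). Psme2 has a near-identical copy, Psme2b, so its probe set may also take up RNA of the copy. The nuclear activator genes Psme3 (PA28 gamma) and Psme4 (PA200) had log2 folds of 0.05 and 0.26. Psme4 read 8.65, 8.84 and 8.57 in the wild-type arrays against 8.78, 8.83 and 9.24 in the sanroque arrays, and sanroque replicate 3 alone was above all wild-type arrays.

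Among the constitutive counterparts, all 3 catalytic subunit genes had negative folds that did not pass. Psmb5 (beta5) read 9.55, 9.22 and 9.39 in the wild-type arrays against 9.10, 8.997 and 9.19 in the sanroque arrays, with no overlap and a log2 fold of -0.29 ± 0.10. Psmb6 (beta1) read 9.99, 9.65 and 9.60 in the wild-type arrays against 9.40, 9.31 and 9.72 in the sanroque arrays, where replicate 3 reached into the wild-type range, with a log2 fold of -0.27 ± 0.14 that was -0.15 without wild type replicate 1. Psmb7 (beta2) read 10.45, 10.40 and 10.27 in the wild-type arrays against 9.96, 10.11 and 10.11 in the sanroque arrays, with no overlap and a log2 fold of -0.31 ± 0.08 (adjusted p = 0.0685, limma with Benjamini-Hochberg adjustment). The structural beta genes Psmb1, Psmb2, Psmb3 and Psmb4 had folds of -0.11, -0.12, -0.23 and -0.12. All 7 constitutive beta genes thus read lower on average, with a median of -0.23, and 0 of 7 were called. Without wild type replicate 1 that median was -0.13.

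The inducible subunit was then set against the subunit it replaces within each array, which cancels differences in scale between arrays. With the wild-type mean set to 0, the within-array difference of Psmb10 and Psmb7 was 0.14, -0.01 and -0.14 in the wild-type arrays against 0.37, 0.43 and 0.48 in the sanroque arrays. The 2 groups did not overlap, and the mean difference was 0.42, a ratio 1.34 times that in wild type (exact permutation test over arrays, two-sided, p = 0.1). Psmb9 against Psmb6 gave -0.21, 0.01 and 0.20 in the wild-type arrays against 0.31, 0.65 and 0.42 in the sanroque arrays, again without overlap, with a mean difference of 0.46 (exact permutation p = 0.1). Psmb8 against Psmb5 gave -0.05, 0.25 and -0.20 in the wild-type arrays against 0.24, 0.51 and 0.30 in the sanroque arrays, where wild type replicate 2 lay within the sanroque range, with a mean difference of 0.35 (exact permutation p = 0.2). With 3 arrays against 3 the smallest p this test allows is 0.1, and after Benjamini-Hochberg adjustment over the 3 pairs the exact p-values were 0.15, 0.15 and 0.2. The mean ratio of inducible to constitutive transcript was higher in sanroque in all 3 pairs, by 1.27 to 1.38 times, but no pair passed, nor could it with this number of arrays. The folds of the inducible genes were 0.05, 0.19 and 0.11 for Psmb8, Psmb9 and Psmb10, and those of their counterparts -0.29, -0.27 and -0.31. Which gene of the pair of Psmb9 and Psmb6 had the larger fold depended on the arrays: the folds were 0.21 and -0.15 without wild type replicate 1, and 0.30 and -0.24 without sanroque replicate 1.

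**Figure D2:**
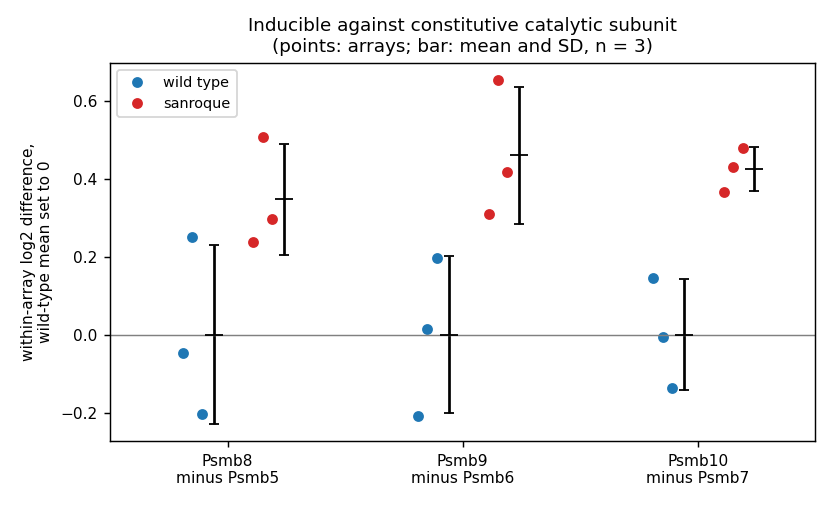
Within-array log2 difference between each inducible catalytic subunit gene and its constitutive counterpart, with the wild-type mean set to 0; points are the 3 arrays of each genotype and bars give mean and SD. The sanroque means lie at 0.35, 0.46 and 0.42, and the groups do not overlap in the pairs of Psmb9 and Psmb10.

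The alpha ring genes had the median nearest 0 among the groups of 6 genes or more. Of 8 Psma genes 6 had folds below 0, with a median of -0.08 and a range of -0.22 (Psma5) to 0.07 (Psma8), and 0 were called. That median was -0.04 without wild type replicate 2 and -0.15 without wild type replicate 3. Psma2, Psma4 and Psma7 lay within 0.03 of 0. Psma1, at -0.18, was the only alpha gene whose groups did not overlap. That is 12.5% of the 8, near the 13.2% of all genes with groups wholly lower and below the 20.4% of the brighter genes. Psma8, a subunit of the testis, read 4.11 to 4.30 in all 6 arrays, near the low end of the scale. Psmb11, the catalytic subunit of the thymic epithelium, read 5.87 to 6.20, around the median level of all genes (5.91). Neither gene has an established role in mature T cells.

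Among the groups of 6 genes or more, the ATPase genes of the regulatory particle had the median farthest from 0. All 6 ATPase genes, which form the ring that unfolds substrates, had negative folds, from -0.43 (Psmc6) and -0.38 (Psmc4) to -0.20 (Psmc3), with a median of -0.31. Every one of them had an unadjusted limma p below 0.05 and 5 of 6 had groups without overlap, yet 0 of 6 were called (for Psmc4, limma, Benjamini-Hochberg adjusted p = 0.0543). Among the genes brighter than the median gene, 19.7% had such a p with a lower level and 20.4% had groups wholly lower. Over all genes the shares were 10.7% and 13.2%. Psmc6 read 10.07, 10.13 and 9.70 in the wild-type arrays against 9.39, 9.48 and 9.74 in the sanroque arrays, and was the ATPase gene whose groups overlapped, through wild type replicate 3 and sanroque replicate 3. The 6 arrays separated by genotype in the median of these genes: relative to the wild-type mean of each gene the medians were 0.09, 0.05 and -0.07 in the wild-type arrays against -0.28, -0.23 and -0.30 in the sanroque arrays.

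**Figure D3:**
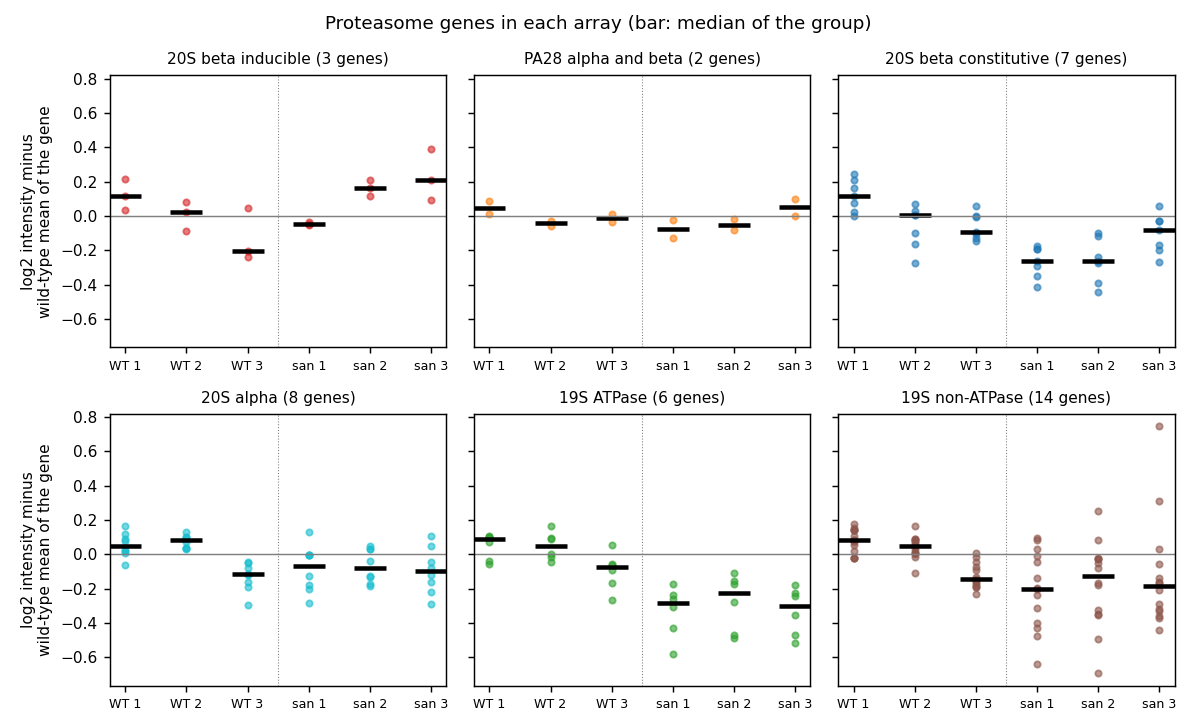
Log2 intensity of each gene minus its wild-type mean in the 3 wild-type (WT) and 3 sanroque (san) arrays, for 6 groups of proteasome genes; bars are medians over the genes of a group. The sanroque medians of the ATPase genes lie at -0.30 to -0.23, below every wild-type median, while those of the inducible beta genes lie at -0.04 to 0.21.

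The 14 Psmd genes were the most mixed. Of these 11 had folds below 0, 2 were called lower and the median was -0.19, or -0.12 without wild type replicate 1. Besides Psmd6 and Psmd12, the deubiquitinase gene Psmd14 had a fold of -0.34, its partner Psmd7 of -0.24 and the ubiquitin receptor gene Psmd4 of -0.23. Psmd5, Psmd9 and Psmd10 encode chaperones that help assemble the base and leave the finished particle, and had folds of -0.33, -0.15 and -0.37. The other lid genes Psmd3, Psmd8, Psmd11 and Psmd13 lay between -0.07 and 0.07.

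The large scaffold genes of the base, Psmd1 and Psmd2, had mean folds above 0 that did not pass and rested largely on sanroque replicate 3. Psmd1 read 9.42, 9.46 and 9.45 in the wild-type arrays against 9.40, 9.39 and 9.76 in the sanroque arrays, a log2 fold of 0.07 that became -0.05 without sanroque replicate 3. Psmd2 had the highest fold of the members and read 9.79, 9.84 and 9.79 in the wild-type arrays against 9.90, 10.06 and 10.56 in the sanroque arrays. All sanroque arrays lay above the wild-type arrays, replicate 3 farthest, and the difference of 0.37 ± 0.16 missed the threshold (Benjamini-Hochberg adjusted p = 0.277, limma). Without sanroque replicate 3 it was 0.17. A further Psmd2 probe set gave 0.16. The further probe sets of Psma3, Psma5, Psmb3 and Psmc1 gave folds of the same sign as those used, between -0.27 and -0.21.

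**Figure D4:**
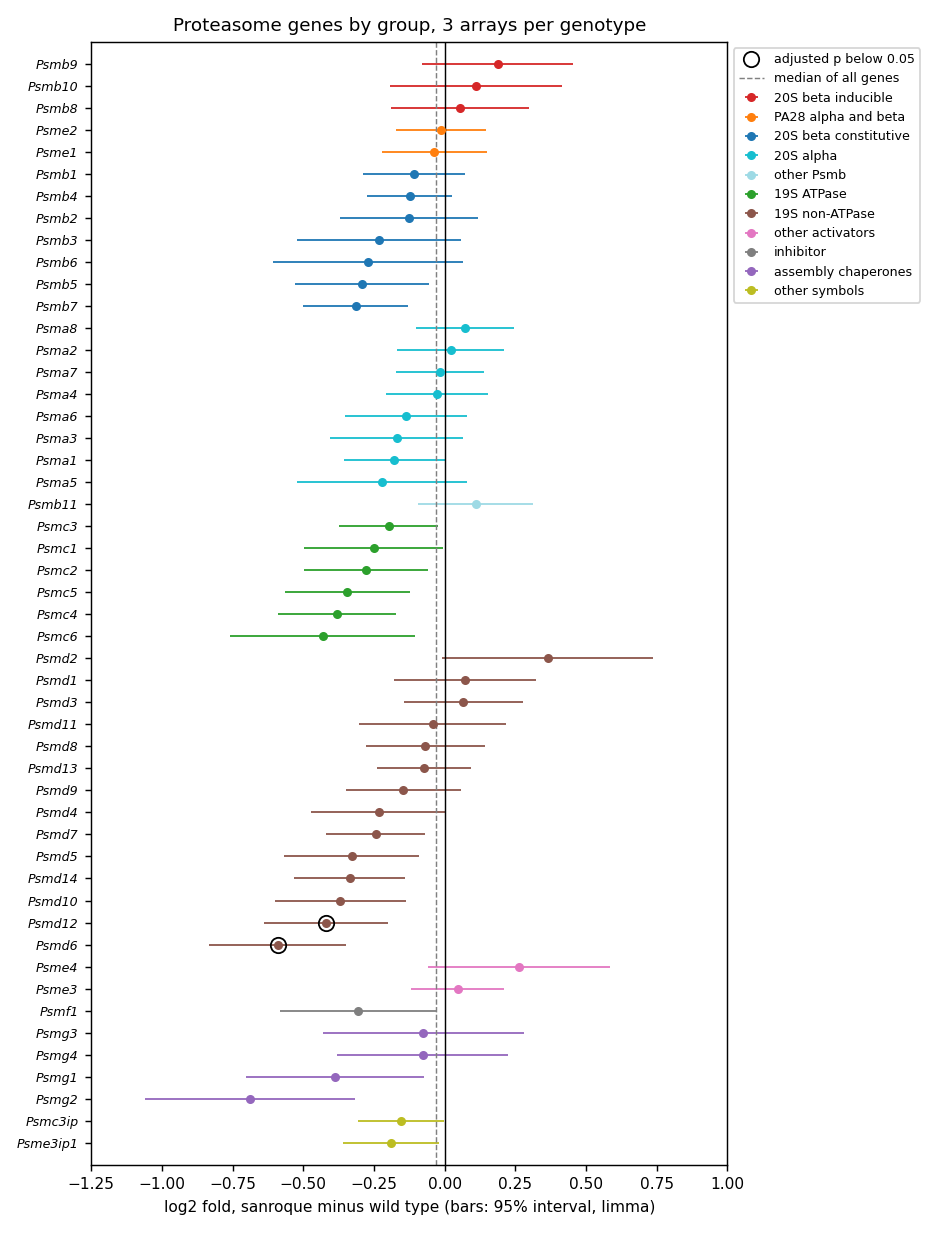
Log2 fold and 95% interval (limma) of each of the 50 genes, grouped by the part of the proteasome they encode; the dashed line is the median of all genes and circles mark adjusted p below 0.05. The 2 circled genes are Psmd12 and Psmd6, all 6 ATPase genes lie left of 0, and the intervals of the 5 inducible and PA28 genes include 0.

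Psmf1, which encodes the inhibitor-like protein PI31, had a log2 fold of -0.31 with overlapping groups. Psmc3ip read 5.92, 5.84 and 5.80 in the wild-type arrays against 5.71, 5.68 and 5.70 in the sanroque arrays, a log2 fold of -0.15. Psme3ip1 read 8.75, 8.64 and 8.78 in the wild-type arrays against 8.61, 8.51 and 8.49 in the sanroque arrays, a log2 fold of -0.19. Neither passed, though the groups of both did not overlap.

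The arrays within a genotype were not alike. Of the 43 genes, 21 were highest in wild type replicate 1, 12 in wild type replicate 2 and 2 in wild type replicate 3, and 7 were lowest in wild type replicate 3. Their medians, relative to the wild-type mean, were 0.08, 0.04 and -0.10 in the wild-type arrays and -0.20, -0.17 and -0.16 in the sanroque arrays. The B cell and myeloid sums were lowest in wild type replicate 3 (1840 and 556), close to those of wild type replicate 1 (2110 and 582), and highest in wild type replicate 2 (4410 and 1100). Their part in the spread of the proteasome values was not tested.

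Genes that act with the proteasome had folds on both sides of 0, from -0.32 to 0.35. Of 19 measured partners and regulators of 26 listed, 13 had folds below 0, with a median of -0.13, and 0 were called in either direction (limma, Benjamini-Hochberg; without adjustment, 4 lower and 1 higher had a p below 0.05). Of all genes 61.5% had folds below 0, and 10.7% lower and 8.16% higher had such an unadjusted p. Of the genes brighter than the median gene the shares were 58.9%, 19.7% and 12.3%. The sanroque values lay wholly below the wild-type values in 5 of the 19 and wholly above them in 2. Of all genes 13.2% and 9.46% did so, and of the brighter genes 20.4% and 13.5%. The 2 partners with the smallest p were Uchl5, a deubiquitinase of the regulatory particle, at -0.30, and Ecpas, which tethers proteasomes to other organelles, at 0.35. The maturation factor gene Pomp had a fold of -0.28 and Nfe2l1, the transcription factor that induces proteasome genes when activity is short, of 0.27.

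Of the genes that load proteasome products onto MHC class I or regulate that pathway, Nlrc5 and Tap1 were called higher. Of 10 measured peptide loading genes of 12 listed, 2 were called higher and 0 lower, all 10 had folds above 0 and the median was 0.24, where 3.26% of all genes were called higher. In 7 of the 10 the sanroque values lay wholly above the wild-type values, against 9.46% of all genes and 13.5% of the brighter genes. The B cell, myeloid and plasma cell markers were higher on the same arrays (6 of 8, 8 of 9 and 4 of 5 called), and their part in the values of these genes was not tested. Nlrc5, the class I transactivator, read 11.03, 11.15 and 11.26 in the wild-type arrays against 11.95, 12.20 and 12.34 in the sanroque arrays, and rose by 1.02 ± 0.11 (limma, Benjamini-Hochberg adjusted p = 0.00537). Tap1, a chain of the peptide transporter, read 10.41, 10.47 and 10.47 in the wild-type arrays against 10.80, 10.98 and 11.00 in the sanroque arrays, and rose by 0.47 ± 0.08 (limma, Benjamini-Hochberg adjusted p = 0.0187). Its head-to-head neighbour Psmb9, on the promoter printed above, had a fold of 0.19 that did not pass; the difference between these folds was not tested. Of 10 measured genes of interferon gamma signalling, Irf8 alone was called, higher by 1.52 ± 0.18, where 3.26% of all genes were called higher. Without adjustment 6 of the 10 had a limma p below 0.05 with a higher level and 0 with a lower one. Of all genes 8.16% and 10.7% did so, and of the brighter genes 12.3% and 19.7%. The sanroque values lay wholly above the wild-type values in 5 of the 10 and wholly below in 1, against 9.46% and 13.2% of all genes. Ifng and Irf1 had folds of 1.28 and 0.46 that did not pass. Irf8 is also a gene of B cells and myeloid cells, whose markers were higher on the same arrays.

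**Figure D5:**
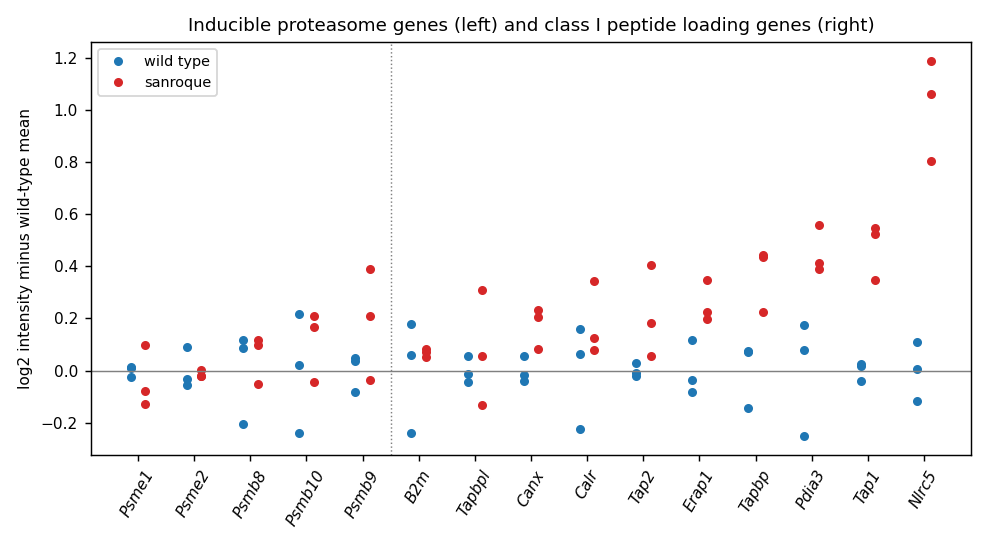
Log2 intensity minus the wild-type mean of each gene for the 5 inducible proteasome and PA28 genes, left, and 10 class I peptide loading genes, right; points are the 3 arrays of each genotype. The wild-type and sanroque points overlap for the 5 genes on the left. They lie apart for 7 of the 10 on the right, among them the called genes Tap1 and Nlrc5.

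Many cell cycle genes rose in sanroque cells. Of 14 measured, 8 were called higher and 0 lower with a median of 0.65, against 3.26% of all genes called higher. The largest were Mki67, a marker of dividing cells, at 2.62, Top2a at 2.31, Ccna2 at 2.26 and Ccnb2 at 1.53. Pcna, the sliding clamp of DNA replication, went the other way, with a fold of -0.29 and groups that did not overlap, and did not pass. B cell, myeloid, plasma cell and effector T cell markers were also higher on these arrays, and their part in the cell cycle values was not tested.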

How the data were processed

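RNA from sorted CD44-low CD8+ T cells was measured on 6 arrays, 3 per genotype. The values the authors deposited are linear intensities, 1 for each probe set of an array, and run from 9.56 to 31996. Per the submitters' processing notes Partek was used, with no role given, and how background, summarization and scaling were handled is not stated there. Intensities were put on log2 without further scaling. Of 35399 probe sets, 21789 had exactly 1 symbol in the platform annotation, and symbols were updated through the GRCm38.p6 gene table (19856 of 19938 genes matched). The brightest probe set by its mean log2 value stood for its gene, with no filter on dim genes. Genotypes were compared with limma 3.58.1 in R 4.3.3 (lmFit, eBayes, two-sided, Benjamini-Hochberg over all 19938 genes). The fit was tested on simulated data.

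The members and gene lists were chosen with earlier results of these data known. Values in every array are given for Psmb5 to Psmb10, Psme1, Psme2, each called member, the 3 highest and 3 lowest folds and the genes that are no proteasome genes. Of each related list up to 4 called genes, or the 2 with the smallest p, are named; Pomp, Nfe2l1, Ifng, Irf1 and Pcna, and the array values of Psmd1, were added after their values were seen. Where mice are not stated to be unrelated, p-values measure the spread between these samples. The number of arrays limits the precision. The labels do not say that replicate numbers pair the samples, and the main fit did not pair them. Plots used Python 3.11.15 and matplotlib 3.10.9.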

Additional observations from a re-analysis of the deposited data

How the results depend on the processing

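The 2 members called lower (limma, Benjamini-Hochberg) numbered 4 among genes above the median level, 6 with quantile normalization, 1 with median centring, 27 with array weights, and 0 with the replicate block. Leaving out each array gave 0 to 6. After seeing the data, 2 fits were added: without both sanroque replicate 1 and wild type replicate 2, and with a score of B cell and myeloid markers as a covariate, and each gave 0 members. The score separated the genotypes (-1.59 to -0.61 in wild type, 0.96 to 1.56 in sanroque), so that the fit cannot tell score from genotype; 0 of all genes passed it and nothing is read from it. In no setting was a member called higher.

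Among all genes, lower calls were 501. They were 641 among the 9969 genes above the median level, 641 with quantile normalization and 486 with median centring. With array weights they were 2735, with the replicate block 30, without both arrays 27, with the score 0, and leaving out each array 22 to 728. Higher calls were 650, against 598, 816, 574, 1998, 271, 326, 0 and 196 to 587 in the same order. Of the related genes 0 were called lower, against 1 with quantile normalization, 8 with array weights and 0 to 1 leaving out each array, and 11 were called higher, against 27 with array weights, 7 with the replicate block, 0 with the score and 7 to 11 leaving out each array. The cause of these changes was not tested. Same-numbered arrays deviated with correlations of -0.05, -0.16 and -0.36. With 3 arrays per group these values cannot show whether same-numbered samples were handled together.

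Small folds changed sign: with array weights Psmb8 was -0.037 and Psmb10 -0.074, and with quantile normalization Psme1 was 0.0048. Leaving out each array gave -0.048 to 0.11 for Psmb8, -0.0094 to 0.22 for Psmb10, -0.10 to 0.0097 for Psme1 and -0.041 to 0.031 for Psme2. The 3 differences between inducible and constitutive subunits were computed in every setting but the score and stayed above 0, from 0.25 (Psmb8 and Psmb5 without wild type replicate 3) to 0.70 (Psmb9 and Psmb6 with array weights). The median of the inducible beta genes was -0.04 with array weights, and that of the constitutive beta genes -0.37.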

Other observations

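A probe set that the platform annotation assigns to both Psme2 and its copy Psme2b, and that the choice of single-symbol probe sets leaves out, read 10.01, 10.16 and 9.87 in the wild-type arrays against 10.19, 10.26 and 10.38 in the sanroque arrays. Its sanroque values lay above its wild-type values, with a log2 fold of 0.27 ± 0.09, whereas the probe set assigned to Psme2 alone gave -0.01. Which transcript this second probe set reads was not tested.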
